A study of Mus musculus with 4 samples.

Results

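Fatty acid desaturases put double bonds into fatty acyl chains and elongases lengthen them, and this account describes 9 such genes, Fads1, Fads2, Fads3, Fads6, Elovl1, Elovl2, Elovl3, Elovl5 and Scd2, in mouse liver. They were chosen by symbol, by a rule that names no measured value, and are 9 of the 46603 genes in the count table. All 9 passed the filter on low counts that kept 13001 genes for testing. Total liver RNA was sequenced from 4 male C57BL/6J mice, all HuRflox/flox, meaning that both copies of the gene for the RNA-binding protein HuR (Elavl1) can be cut by Cre recombinase. Control mice 1 and 2 had received AAV8-TBGP-GFP, and mice 3 and 4, labelled HuR hKO, had received AAV8-TBGP-Cre, in which the thyroxine-binding globulin promoter limits Cre to hepatocytes. Both groups therefore carried floxed alleles and an AAV8 virus, and other liver cells of the HuR hKO mice keep the gene. All mice ate a Western diet with sugar water (WDSW) for 4 weeks, with 42% of its energy from fat, 0.1% cholesterol, and 23.1 g/L fructose and 18.9 g/L glucose in the drinking water, and their age is not given in the sources used here.

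Each library held between 13032095 and 19715577 counts on genes, the largest being that of mouse 4. Levels are CPM, a gene's counts relative to the size of its library after scaling with TMM factors. Differences between groups come from the quasi-likelihood test of edgeR, with p-values adjusted by the Benjamini-Hochberg method over all 13001 genes. The targeted gene Elavl1 had 377 and 347 counts in the control mice and 541 and 648 in the mice labelled HuR hKO. On the log2 scale the fold change was 0.41 ± 0.13 (SE, n = 2 per group), higher in the libraries labelled HuR hKO, with an adjusted p of 0.545 in edgeR. This goes against the label, and all directions below are therefore between libraries as labelled. A count over the whole gene also holds reads from outside any deleted exon and from other cell types. Of the exon bases of Elavl1, 204 overlap Ccl25 on the other strand. Ccl25 had 46 and 57 counts in the control mice and 33 and 50 in the mice labelled HuR hKO. The cause of the higher Elavl1 counts was not tested. Hepatocyte markers were abundant, with 9 genes of the list together at 75484 to 85563 CPM. Some markers of other cells were extreme in the library of control mouse 1. The bile duct keratin Krt19 had 162 counts there beside 5, 7 and 34 in mice 2, 3 and 4. The smooth muscle actin Acta2 had 275 counts beside 60, 66 and 177, and the B cell gene Ighm 33 beside 340, 187 and 310. Of the same lists, Epcam was also highest and Cd79a lowest there. Spp1, at 31.5 CPM beside 22.3 to 41.9 CPM, was not extreme, and Dcn, at 84.1 beside 90.2 to 118.5 CPM, was lowest. Between pairs of libraries, chi-square per degree of freedom was smallest for control mice 1 and 2, at 21.2, and largest for mice 1 and 4, at 32.7. These markers were named after their values were seen, and some results that rest on control mouse 1 are given below with and without it.

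As background, mammals cannot make linoleic and alpha-linolenic acid and take them from food. In the endoplasmic reticulum of hepatocytes, Fads2 (delta-6 desaturase) opens the route to long polyunsaturated chains, Elovl5 lengthens its product, Fads1 (delta-5 desaturase) then makes arachidonic and eicosapentaenoic acid, and Elovl2 lengthens these further towards docosahexaenoic acid. Elovl1 and Elovl3 lengthen saturated and monounsaturated chains, Scd2 makes monounsaturated ones, and transcription of many of these genes is known to respond to the regulators SREBP-1c, LXR and PPARalpha. HuR binds AU-rich stretches of mRNA, often in the 3′ UTR.

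Because HuR binds AU-rich stretches, the pentamer ATTTA was counted in the longest annotated 3′ UTR of each gene (GRCm38). Counts were 6 in Elovl5 and Scd2, 5 in Elovl2 and Fads6, 3 in Fads1 and Elovl3, 1 in Fads3 and 0 in Fads2 and Elovl1. Of 11948 tested genes with a 3′ UTR, 69.6% held at least 1 copy, with a median of 2. Longer 3′ UTRs hold more copies, and lengths were 3884 bases for Fads6, 3664 for Scd2 and 2913 for Elovl2, beside a median of 1164.5. Per kilobase there were 3.51 copies in Elovl5, 3.36 in Elovl3, 1.72 in Elovl2 and 1.64 in Scd2. Fads1 held 1.53, Fads6 1.29 and Fads3 0.46 per kilobase, beside a median of 1.30. The windows of 30 bases with the most copies are shown for 3 genes, in transcript direction with the pentamer in capitals, from Elovl3 at chr19:46135052-46135081 (plus strand), Fads6 at chr11:115279712-115279741 (minus strand) and Fads1 at chr19:10195291-10195320 (plus strand).
Elovl3: ggagttATTTAtATTTAtATTTAgaaatct
Fads6: cATTTAgttgcagatgtgaggtggATTTAg
Fads1: ccttcgaacatgATTTAgaaagagggcatt
The Elovl3 window held 3 copies, as did a window of 267 tested genes (2.23%), the Fads6 window held 2 and the Fads1 window 1. A match is a description of the letters and not a binding site.

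Promoter windows of 300 bases, from 250 before to 50 after the start, were found for 6 of the 9 genes in the RefSeq table (GRCm38.p6). Those of Fads2, at chr19:10101454-10101753 on the minus strand, and Elovl5, at chr9:77917115-77917414 on the plus strand, are shown because Fads2 had the smallest p-value of the 9 genes and Elovl5 the widest spread between control mice. Capitals mark matches on either strand to the motifs searched, which were the sterol regulatory element TCACNCCAC, the CCAAT box, the E-box CACGTG, the nuclear receptor site AGGTCA, its direct repeats DR1 (AGGTCANAGGTCA) and DR4 (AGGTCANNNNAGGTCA), and the GC box GGGCGG.
Fads2: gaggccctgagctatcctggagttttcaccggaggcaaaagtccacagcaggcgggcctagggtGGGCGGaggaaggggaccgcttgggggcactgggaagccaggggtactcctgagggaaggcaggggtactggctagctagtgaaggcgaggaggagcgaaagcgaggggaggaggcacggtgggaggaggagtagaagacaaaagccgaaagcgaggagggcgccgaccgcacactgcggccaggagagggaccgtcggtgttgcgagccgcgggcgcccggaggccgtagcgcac
Elovl5: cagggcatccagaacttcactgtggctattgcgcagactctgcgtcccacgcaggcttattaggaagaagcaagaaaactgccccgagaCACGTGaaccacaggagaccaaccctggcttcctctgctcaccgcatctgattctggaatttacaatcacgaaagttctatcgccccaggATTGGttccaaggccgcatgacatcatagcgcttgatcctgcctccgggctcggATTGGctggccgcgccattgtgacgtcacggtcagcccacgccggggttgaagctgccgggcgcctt
The Fads2 window held 1 GC box, a motif of 35.7% of the 32851 windows in the table. The Elovl5 window held 1 E-box (7.15% of windows) and 2 CCAAT boxes (37.4%). The sterol regulatory element as spelled here was in 0 of the windows of these 6 genes and in 1.24% of all windows.

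Among the 9 genes, 4 desaturase genes, Fads1, Fads2, Fads3 and Fads6, had higher levels in both libraries labelled HuR hKO than in both control libraries, while the other five overlapped between groups. Groups that do not overlap in that direction made up 19.3% of all tested genes, and 0 of 9 were apart in the other direction (18.8%). The fitted log2 fold change was above 0 for 7 of the 9 (50.3% of all tested genes), with a median of 0.22 beside 0.00 for all tested genes. Without mouse 3 it was above 0 for 5 of the 9, with a median of 0.02. None of the 9 had an adjusted p under 0.05 in edgeR or in the other tools run, against 0.0231% of tested genes in edgeR, and 1, Fads2, had an unadjusted p under 0.05 with a higher level (4.04% of tested genes), while 0 of 9 had one with a lower level (3.39%). At a fold change of 1.8 with an unadjusted p under 0.05, the count was 0 of 9, beside 1.21% of tested genes higher and 0.915% lower. When counts were left unscaled, the median of all genes moved to 0.31 and that of the 9 genes to 0.51. In bulk liver, fewer cells of a type and less RNA per cell cannot be told apart.

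**Figure D1:**
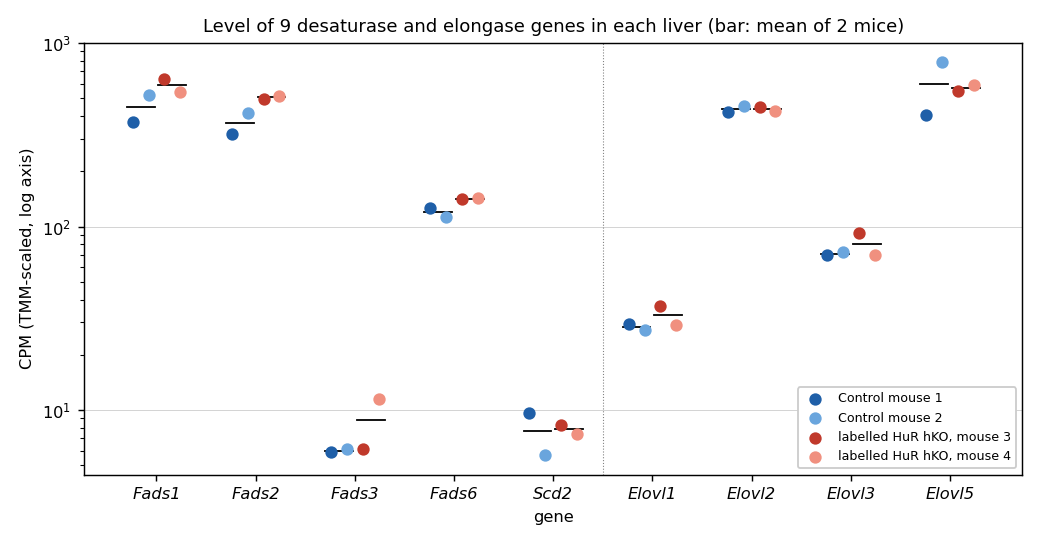
Level of each gene in CPM (log axis) in the 4 livers, with a bar at the mean of each group of 2 mice. Fads1, Fads2 and Fads6 are higher in both mice labelled HuR hKO, and the control mice of Elovl5, at 405 and 785 CPM, lie on either side of both.

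Fads2, the delta-6 desaturase, was at 317 and 415 CPM in the control mice and at 494 and 517 CPM in the mice labelled HuR hKO. Both labelled HuR hKO livers lay above both controls, and control mouse 1 was the lowest. The log2 fold change was 0.47 ± 0.17 (SE, n = 2 per group; 95% interval 0.09 to 0.85), with an unadjusted p of 0.0223 and an adjusted p of 0.574 in edgeR. Leaving out control mouse 1, the library that was extreme in some cell markers, lowered it to 0.27, and leaving out control mouse 2 raised it to 0.67. The log2 fold change was 0.48 without mouse 3 and 0.43 without mouse 4. The part of the marker differences of control mouse 1 in the Fads2 and Fads1 values was not tested.

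Fads1, the delta-5 desaturase, was at 371 and 521 CPM in the control mice and at 636 and 539 CPM in the mice labelled HuR hKO. The nearest mice of the groups, control 2 and HuR hKO 4, lay close together, and control mouse 1 was again the lowest. Its log2 fold change was 0.40 ± 0.19 (SE, n = 2 per group; 95% interval -0.04 to 0.84), with an adjusted p of 0.684 in edgeR. It was 0.16 without control mouse 1 and 0.66 without control mouse 2.

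Fads6, a less studied member of the desaturase family, was at 126 and 112 CPM in the control mice and at 141 and 143 CPM in the mice labelled HuR hKO. The groups did not overlap and the latter livers were nearly equal. Its fold change on the log2 scale was 0.25 ± 0.13 (SE, n = 2 per group), with an adjusted p of 0.699 in edgeR, and stayed between 0.17 and 0.32 when each mouse was left out.

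Fads3, which acts on sphingoid bases, was far less abundant, at 5.87 and 6.12 CPM in the control mice and 6.14 and 11.4 CPM in the mice labelled HuR hKO. The nearest mice of the groups almost met, and mouse 4 alone was high, with 215 counts beside 78 to 88 in the other libraries. The log2 fold change of 0.56 ± 0.30 (SE, n = 2 per group; adjusted p of 0.711 in edgeR) became 0.03 without mouse 4, and with DESeq2 size factors or upper quartile scaling the groups overlapped, leaving 3 of 9 genes apart. Mouse 4 was also the highest for the stellate cell genes Col3a1, at 44.8 CPM beside 24.1 to 31.2 CPM in the others, and Col1a1, at 18.7 beside 9.26 to 11.9 CPM. The stellate markers Col1a2, Dcn, Pdgfrb and Reln were highest in mouse 4 as well. The rest of the list was highest in control mouse 1. There Acta2 was at 20.7 CPM beside 4.48 to 9.40 CPM, Des at 8.50 beside 4.11 to 5.36 CPM and Lrat at 17.6 beside 11.1 to 16.3 CPM. Of 9 stellate markers, 9 were tested and 7 had a fold change above 0. Their summed levels were 207 to 219 CPM in control mice and 220 to 288 CPM in mice labelled HuR hKO. Among adipocyte markers, mouse 4 had 14 counts of Adipoq, 9 of Plin1, 6 of Lep and 10 of Retn, beside 0 to 3 in the others. These were too low to be tested, and the adipocyte markers Cfd and Cidea were highest in control mouse 2. The part of stellate and adipocyte markers in the Fads3 value was not tested.

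Scd2, a stearoyl-CoA desaturase that is low in adult liver, was at 9.63 and 5.67 CPM in the control mice and at 8.23 and 7.43 CPM in the mice labelled HuR hKO. The control mice lay on either side of the others. The log2 fold change was 0.03 ± 0.27 (SE, n = 2 per group), with an interval from -0.58 to 0.64. Without control mouse 1 it was 0.45, and without control mouse 2 it was -0.30. Of the 50-base words in its transcripts, 3.97% also occur in other genes, chiefly of its own family, so some of its reads could be assigned to a near copy.

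Elovl5, which lengthens the products of both front-end desaturases, was at 405 and 785 CPM in the control mice and at 544 and 588 CPM in the mice labelled HuR hKO. The 1.94-fold gap between the control mice held both other livers within it, and 6.18% of tested genes had a gap as large between these mice. The log2 fold change was -0.07 ± 0.27 (SE, n = 2 per group; 95% interval -0.70 to 0.56; adjusted p of 0.970 in edgeR). Without control mouse 1 it was -0.48 and without control mouse 2 it was 0.49, so its direction turned on which control was kept.

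Elovl2, which acts on the longer polyunsaturated chains, was at 422 and 454 CPM in the control mice and at 446 and 426 CPM in the mice labelled HuR hKO. The ranges were nearly the same. The difference on the log2 scale was -0.01 ± 0.14 (SE, n = 2 per group), with an interval from -0.32 to 0.31, and its small size changed sign without scaling or without control mouse 2 or mouse 4.

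Elovl1, which makes very long saturated chains for sphingolipids, was at 29.5 and 27.3 CPM in the control mice and at 36.8 and 29.2 CPM in the mice labelled HuR hKO. Mouse 3 was the highest and the others lay close together. Between groups the log2 fold change was 0.22 ± 0.15 (SE, n = 2 per group; adjusted p of 0.798 in edgeR), and 0.02 without mouse 3. Elovl1 shares 53 exon bases with Cdc20.

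Elovl3, a gene known in mouse liver for daily rhythm and for higher levels in males, was at 69.5 and 72.6 CPM in the control mice and at 92.0 and 69.5 CPM in the mice labelled HuR hKO. Here too mouse 3 alone was high. The fitted log2 fold change was 0.18 ± 0.16 (SE, n = 2 per group; adjusted p of 0.838 in edgeR), and -0.05 without mouse 3.

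**Figure D2:**
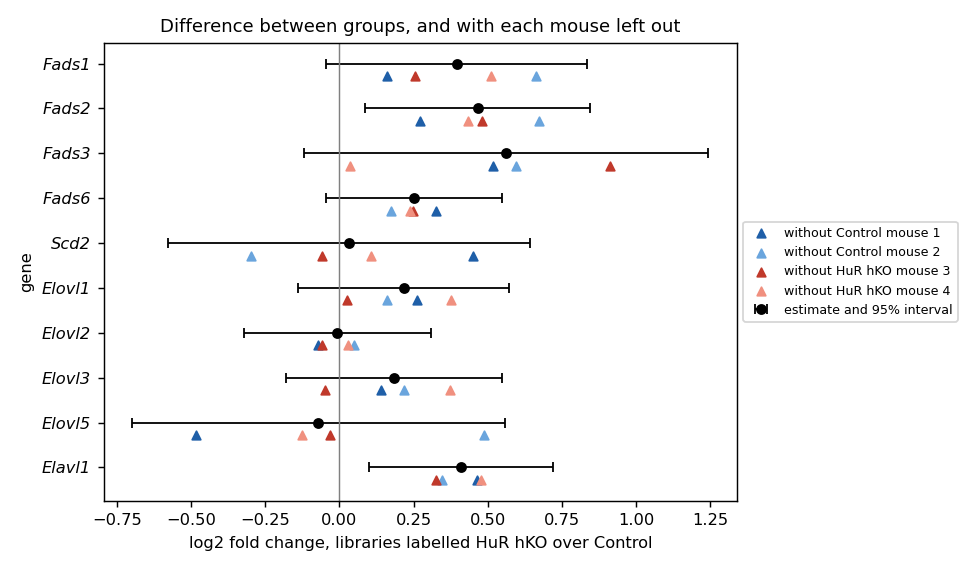
Log2 fold change of each gene and of Elavl1 between libraries labelled HuR hKO and Control, with its 95% interval, and as triangles the value with 1 mouse left out. Fads2, at 0.09 to 0.85, and Elavl1 have intervals above 0, and the Elovl5 triangles run from -0.48 to 0.49.

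Clock and sex-biased genes were examined beside Elovl3. Of 15 clock genes tested, 8 had a fold change above 0, 7 below it and 0 an unadjusted p under 0.05. Of 10 male-biased liver genes tested, 2 had a fold change above 0 and 8 below it, with a median of -0.35, and Ugt2b38, Slco1a1 and Hsd3b5 had an unadjusted p under 0.05, at log2 fold changes of -1.21, -0.66 and -0.50. Without control mouse 1 the list median was -0.12, Slco1a1 was at -0.38 and Hsd3b5 at -0.30, with unadjusted p of 0.0650 and 0.186 in edgeR. The median was -0.14 without mouse 3, and Hsd3b5 was at -0.26 without mouse 4. Of 13 female-biased genes listed, only 4 passed the filter on low counts, and these 4 had a fold change above 0. Cyp2a4, Cyp2b13 and Cyp2b9 had an unadjusted p under 0.05 in edgeR, at 4.82, 2.40 and 1.52. Cyp2a4 had 11 and 7 counts in control mice and 403 and 200 in mice labelled HuR hKO. Cyp2b13 had 9 and 14 beside 56 and 98. Both passed the filter only through mice labelled HuR hKO. With TMM scaling and all mice, no gene of these lists had an adjusted p under 0.05 in edgeR, where the smallest was 0.0636 for Cyp2a4. Other settings did call some of them. In the DESeq2 Wald test the adjusted p was 5.31e-17 for Cyp2a4, 0.00519 for Cyp2b13, 0.000392 for Cyp2b9 and 0.0354 for Ugt2b38, and in edgeR that of Cyp2a4 was 0.0346 with total count alone, 7.27e-09 without a filter and 0.0119 without control mouse 1. The part of these differences in the Elovl3 value was not tested.

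**Figure D3:**
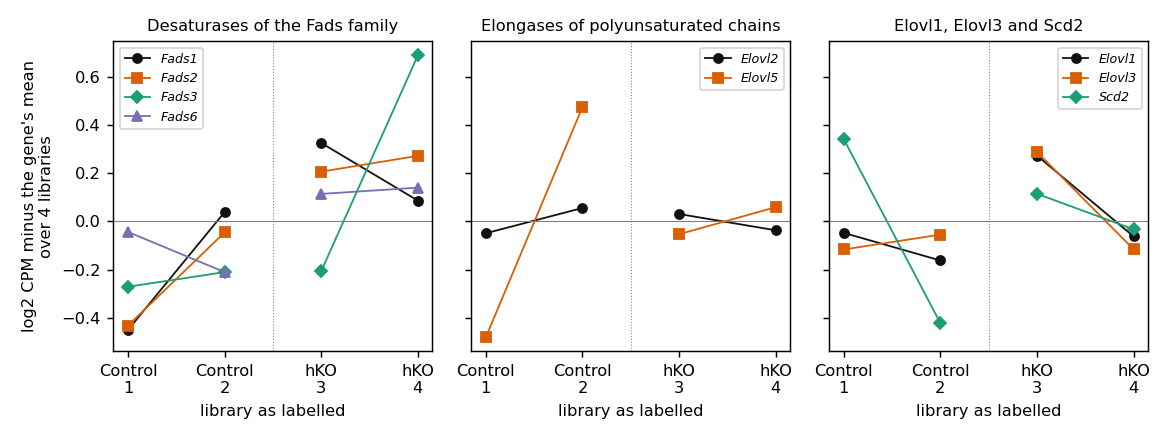
Log2 CPM of each gene minus its mean over the 4 libraries, by library as labelled, in 3 panels. Fads1 and Fads2 are lowest in control mouse 1, Fads3 is high in mouse 4 alone, Elovl5 differs most between the control mice, and Elovl1 and Elovl3 are high in mouse 3.

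Compared per kilobase of exon, Elovl5 had the highest mean level of the 9 genes, at 165 CPM per kb, followed by Fads2 at 132, Elovl2 at 110 and Fads1 at 107 CPM per kb. Neighbours among these 4 genes overlapped in range over the livers. Elovl3 followed at 38.4, Fads6 at 19.6 and Elovl1 at 11.3 CPM per kb, each below its predecessor in all 4 libraries. Fads3 at 1.95 and Scd2 at 1.42 CPM per kb came last and overlapped. Fads1, Fads2, Elovl2 and Elovl5 together held 86.3% to 90.7% of the summed CPM of the 9 genes.

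Ratios within a library do not depend on its scaling. Fads2 to Fads1 was 0.854 and 0.796 in the control mice and 0.777 and 0.959 in the mice labelled HuR hKO. Elovl5 to Elovl2 was 0.959 and 1.73 in the control mice and 1.22 and 1.38 in the others. These ratios, and those of Elovl3 to Elovl5 and Fads3 to Fads2, overlapped between groups, with a two-sided exact permutation p of 1 for each of the 4 ratios, and 0.333 is the smallest p that 2 against 2 mice allow.

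The summed CPM of the 5 desaturase genes over that of the 4 elongase genes was 0.897 and 0.792 in the control mice and 1.15 and 1.09 in the mice labelled HuR hKO. This ratio was chosen after the values were seen, and so was Fads1 and Fads2 together over Elovl2, at 1.63 and 2.06 in the control mice and 2.53 and 2.48 in the others. Both ratios were higher in both mice labelled HuR hKO. Groups that do not overlap always give the smallest exact permutation p, here 0.333, so for ratios chosen this way it carries no information. The desaturase sum was 830 and 1060 CPM in the control mice and 1285 and 1218 CPM in the others, while the elongase sum, at 926 and 1339 CPM, lay on both sides of 1119 and 1113 CPM.

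Fads1, Fads2 and Fads3 lie together on chromosome 19, within 155 kb of GRCm38 (chr19:10041569-10196877), with the Fads1 and Fads2 starts 81.1 kb apart. Within 100 kb of the cluster lie 6 other tested genes, and 4 of these had a fold change above 0, with a median log2 fold change of 0.19. None of the 6 had an unadjusted p under 0.05 in edgeR, and they ranged from -0.31 for Myrf to 0.48 for Fen1.

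**Figure D4:**
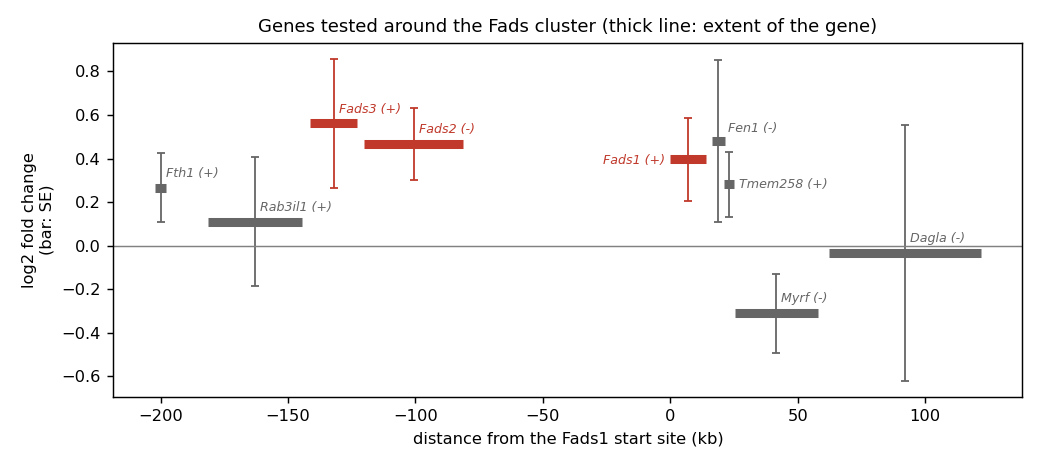
Log2 fold change with its SE for each tested gene around the Fads cluster, against distance from the Fads1 start in kb, with gene extent as a thick line. Fads1, Fads2 and Fads3 lie at 0.40, 0.47 and 0.56, and the other genes between -0.31 and 0.48.

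The partners of these enzymes were described from lists of pathway genes. Of 6 tested genes of the elongation cycle, which reduce and dehydrate each lengthened chain, 3 had a fold change above 0 and 3 below it, and 0 had an unadjusted p under 0.05. Hacd1, a dehydratase, was at 6.40 and 4.70 CPM in the control mice and 7.74 and 7.27 CPM in the mice labelled HuR hKO. Of 5 tested genes for cytochrome b5 and its reductases, which pass electrons to desaturases, 3 were above 0 and 2 below, and 0 had an unadjusted p under 0.05. Cyb5a, the main cytochrome b5 of the endoplasmic reticulum, was at 811 and 985 CPM in the control mice and 893 and 1212 CPM in the others.

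Of the 10 genes for chain shortening in peroxisomes, the last step to docosahexaenoic acid, 4 had a fold change above 0 and 6 below it. Acot8, an acyl-CoA thioesterase, was at 18.8 and 23.6 CPM in the control mice and 28.2 and 33.1 CPM in the mice labelled HuR hKO. The difference was 0.53 on the log2 scale with an unadjusted p of 0.0109 in edgeR. Abcd2, a transporter of very long acyl-CoA, had a log2 fold change of 0.74 and an unadjusted p of 0.0430. Without control mouse 1 the values were 0.37 for Acot8 and 0.36 for Abcd2, with unadjusted p of 0.0666 and 0.236 in edgeR, and Abcd2 was at 0.50 without mouse 3 and 1.24 without control mouse 2. Neither passed the adjusted threshold, at adjusted p of 0.501 and 0.648 in edgeR.

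Among 13 transcription regulators, 9 had a fold change above 0 and 4 below it, and 1 had an unadjusted p under 0.05. Ppara, which encodes PPARalpha, was at 66.7 and 64.7 CPM in the control mice and 74.5 and 105.6 CPM in the mice labelled HuR hKO. This was 0.46 on the log2 scale with an adjusted p of 0.603 in edgeR. Mouse 4 was the high one, as for Fads3, and without it the value was 0.18. Srebf1, which encodes SREBP-1, was at 716 and 676 CPM in the control mice and 732 and 922 CPM in the others, with a log2 fold change of 0.25 and an adjusted p of 0.772 in edgeR.

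Genes that use the products showed no member past an unadjusted p of 0.05 among 10 for activation and acylation (6 above 0), 12 for eicosanoids (6 above 0) and 8 for ceramides (5 above 0). Degs2, a sphingolipid desaturase and hydroxylase related in function, was at 3.01 and 1.27 CPM in the control mice and 0.907 and 1.06 CPM in the mice labelled HuR hKO, with an adjusted p of 0.674 in edgeR.

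**Figure D5:**
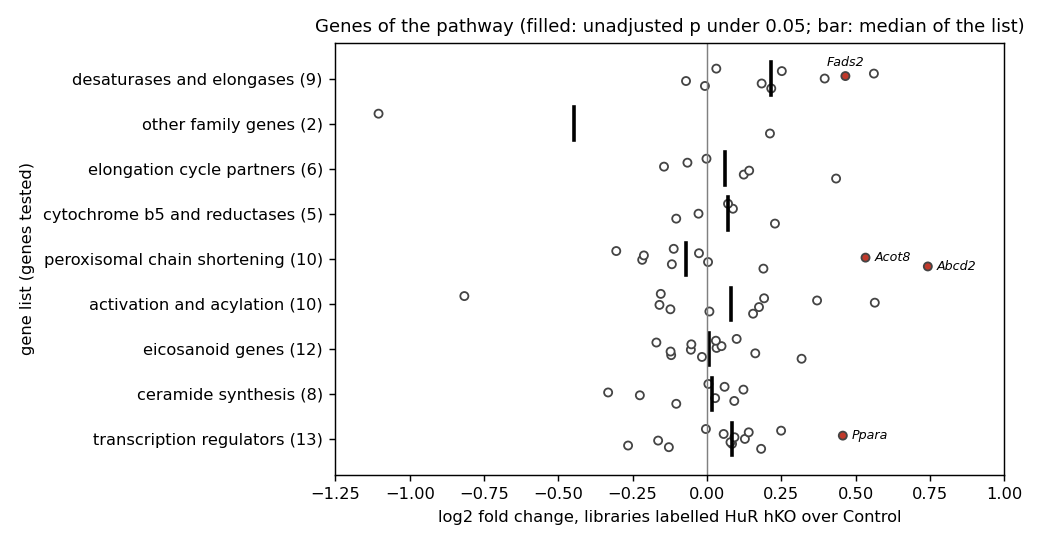
Log2 fold change of each tested gene of the pathway lists, filled where the unadjusted p was under 0.05, with a bar at the median of each list. Fads2, Acot8, Abcd2 and Ppara are filled, and medians run from -0.45 for 2 other family genes to 0.22 for the desaturases and elongases.

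For each gene, the pathway gene with the most similar profile over the 4 libraries was taken as that with the smallest Euclidean distance between centred log2 CPM values, among 74 genes. Fads1 lay nearest to Fads2 (distance 0.237) and Fads2 nearest to Acot8 (0.139). Fads3 lay nearest to Ppara (0.291), Elovl3 to Elovl1 (0.139) and Elovl5 to Acaa1b (0.332), a peroxisomal thiolase. Between 2 and 353 tested genes outside the comparison lay nearer still, so these neighbours describe 4 libraries only.

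Of the other cell types, 10 Kupffer cell markers had summed levels of 255 to 260 CPM in control mice and 274 to 290 CPM in mice labelled HuR hKO, with 7 of 10 fold changes above 0. Endothelial markers summed to 243 to 277 CPM and 277 to 311 CPM, overlapping between groups, with 8 of 8 above 0 and 0 at an unadjusted p under 0.05. Of 4 bile duct (cholangiocyte) markers tested, 2 had a fold change above 0 and 2 below it, with a median of -0.23. The median of the markers then tested was 0.63 without control mouse 1 and -1.17 without control mouse 2, so its sign turned on the control kept. Summed levels were 27.5 to 52.8 CPM in control mice and 39.6 to 49.8 CPM in mice labelled HuR hKO. Krt19 was at -2.38 and Epcam at -0.56 on the log2 scale, both highest in control mouse 1, while Spp1 was at 0.51, and at 0.29 without control mouse 2. Of 6 monocyte and macrophage markers tested, 5 had a fold change above 0 and 1, Ccr2 at -0.18, below it. The 8 listed genes summed to 29.4 and 39.6 CPM in control mice and 47.6 and 40.1 CPM in mice labelled HuR hKO. Trem2, a macrophage gene, was at 0.149 to 0.301 CPM in control mice and 0.796 to 0.837 CPM in the others, close to the level that 3 counts allow. With 4 and 2 counts in control mice and 12 and 15 in the others, Trem2 passed the filter only through mice labelled HuR hKO. The part of these cell type markers in the values of the 9 genes was not tested.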

How the data were processed

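Liver RNA of 2 control mice and 2 mice labelled HuR hKO was compared. The authors deposited counts per Ensembl gene as whole numbers, not normalized. The submitters' processing notes name GRCm38 and RSEM without a role, so the counts may be rounded estimates, and the aligner and the use of strand are not given in the sources used here. Symbols were matched for 46005 of 46603 identifiers. Counts were tested with edgeR 4.0.16 (R 4.3.3; filterByExpr minimum 10, total 15) and drawn with matplotlib 3.10.9. A count of 0 allows 3 counts, or 0.152 to 0.230 CPM, which covers counting error only. The counts of every pair of libraries differed by more than sampling noise (chi-square per degree of freedom 21.2 to 32.7). The labels number the mice, but nothing says how they were housed or whether they were littermates.

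The members and lists were chosen with earlier results of these data known. Genes named from a list are among the 4 with the smallest unadjusted p, those past a fold change of 1.8 with p under 0.05, or the nearest profile of a member, and cell type markers were named after their values were seen. Some genes that a list or the naming rule covers are not reported here. Alternatives were DESeq2 1.42.0, limma-voom (limma 3.58.1), the robust test, other scalings and filters, and leaving out each mouse. The tests were tested on simulated data.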

Additional observations from a re-analysis of the deposited data

How the results depend on the processing

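The deposited counts of 4 mice limit what can be shown, with 1 mouse alone in a group when another was left out and then assumed to vary like the rest. No paired analysis was possible because the groups share no replicate numbers. Genes with an adjusted p under 0.05 numbered 3 in edgeR, 155 without scaling, 8 with total count alone, 161 without a filter, 85 with the DESeq2 Wald test, 8 with the robust test, and 0 to 73 with a mouse left out (0 without mouse 3, 43 without control mouse 1, 73 without control mouse 2). At a fold change of 1.8, 157 were higher and 119 lower, against 510 and 61 without scaling, 262 and 264 without a filter, and 119 to 274 and 139 to 232 with a mouse left out, the highest both without control mouse 2. Of the 9 genes, 1 had an unadjusted p under 0.05, against 2 without scaling, 3 without a filter, 2 with DESeq2 and 0 to 3 with a mouse left out. The cause was not tested.

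Of 737 values recomputed for 57 named genes, 689 kept direction and side of the adjusted threshold, 19 changed side and 29 changed sign. Without scaling, the log2 fold change was 0.30 for Elovl2, 0.25 for Elovl5, 0.10 for Acaa1b, 0.22 for Cers2, 0.067 for Cers6, 0.19 for Cyb5b, 0.20 for Ephx2, 0.24 for Hsd17b12, 0.039 for Mbtps1, 0.14 for Mlxipl, 0.0055 for Nfil3 and 0.17 for Ptges2, all below 0 with TMM scaling. With limma-voom Elovl5 was at 0.0050. With each mouse left out in turn, values that changed sign ran from -0.071 to 0.048 for Elovl2 (above 0 without control mouse 2 and, at 0.027, without mouse 4), -0.048 (without mouse 3) to 0.37 for Elovl3, -0.48 to 0.49 (without control mouse 2) for Elovl5, -0.30 (without control mouse 2; -0.059 without mouse 3) to 0.45 for Scd2, -0.49 to 0.10 (without control mouse 2) for Acaa1b, -0.37 (without control mouse 1; -0.11 without mouse 4) to 2.45 for Acot3, -0.0080 (without mouse 4) to 0.42 for Cyb5a, -0.30 to 0.060 (without mouse 4) for Cyb5b, -0.17 (without control mouse 1) to 0.39 for Cyb5r3, -0.054 (without mouse 4) to 0.17 for Cyb5r4, -0.31 (without control mouse 2; -0.071 without mouse 3) to 0.51 for Ltc4s, and -0.38 to 0.024 (without control mouse 2) for Ptges2.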
